A study of Phaseolus vulgaris with 2 samples.

Results

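Of the 27197 genes in the deposited expression table of the common bean cultivar Pinto Saltillo (PS), 77 were close to silent in irrigated plants and expressed in plants under drought. They were selected by their values: a control level below 0.5 FPKM and a drought level of at least 5 FPKM (fragments per kilobase of transcript, scaled to mapped fragments). The study followed bean cultivars under water deficit, and the RNA-Seq data analysed here come from wild type Phaseolus vulgaris PS plants assigned to treatments at 45 days of age. Control plants were kept under continuous irrigation, drought plants went without irrigation for 2 weeks, and both groups had received the same nutrient solution before. Aerial tissue was taken (trifoliates, petioles, internodes and stems, without the senescent primary leaves) in pools of 6 to 9 plants, and the RNA was combined by condition. The table holds 1 value per gene and condition, although the labels speak of 2 libraries per treatment, so no value below has a replicate error and no difference was tested. Because the rule used both values of each gene, the difference between them is how the genes were chosen and not a result.

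Many of the 77 genes carry annotation terms for the plant cell wall or the space outside the plasma membrane. Where their proteins act was not measured. Growing cells are held by a primary wall of cellulose tied by xyloglucan and embedded in pectin, and enzymes that cut and rejoin xyloglucan or trim pectin alter how the wall yields and sets. Water-conducting xylem and fibre cells later add a secondary wall of cellulose, xylan and lignin, which stiffens stems and veins. The roles given below for named proteins are known mainly from Arabidopsis, and no function was measured in bean.

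The 77 genes were 0.995% of the 7739 genes below 0.5 FPKM in control. Of the others in that class, 6160 were also below 0.5 FPKM in drought and 1502 were between 0.5 and 5 FPKM. All 77 passed a 4-fold difference on log2(FPKM + 1), which the rule itself forces, whereas 2.48% of the 19661 genes with at least 1 FPKM in either library were 4-fold higher in drought and 1.62% were 4-fold lower. Of the 77 genes, 71 had a control value above 0, from 0.0291 to 0.495 FPKM with a median of 0.298, and 6 were listed at 0. Drought values started at 5.004 FPKM and had a median of 6.92, so most of the genes were expressed at a low level in drought. In drought, 56 genes lay between 5 and 10 FPKM, 13 between 10 and 20, 6 between 20 and 50, and the 2 highest were at 116 and 11098 FPKM. Among the 71 genes above 0 in control, the drought to control ratio of FPKM ran from 11.3 to 234 with a median of 29.8. The median log2 ratio with 1 FPKM added to both values was 2.71 over the 77 genes, against -0.03 over the 19661 genes.

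**Figure D1:**
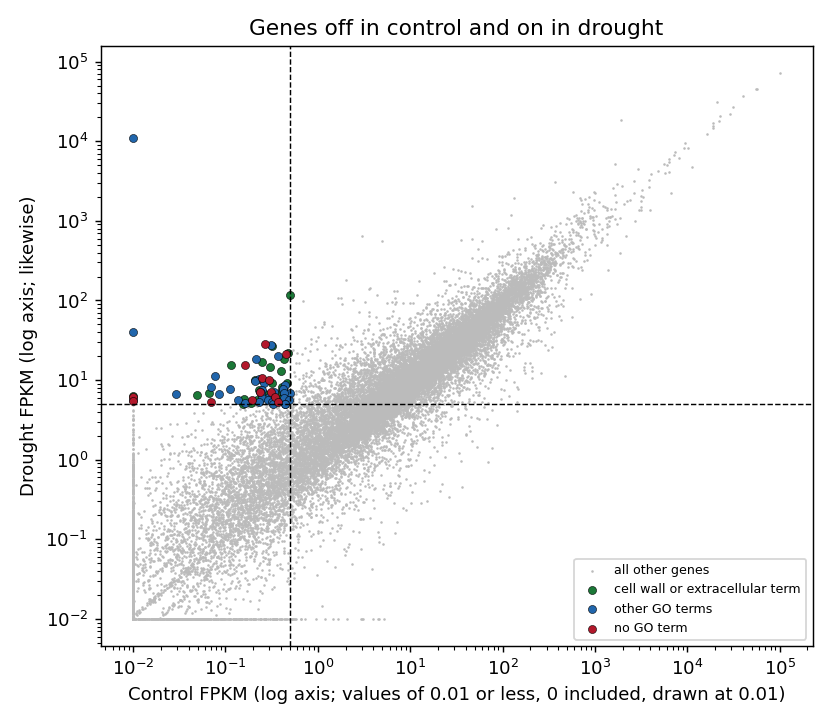
Control FPKM (x, log axis) against drought FPKM (y, log axis) for every gene of the table, 1 library per condition, with values of 0.01 or less drawn at 0.01 and dashed lines at the limits of 0.5 and 5 FPKM. The 77 selected genes fill the upper left corner, most of them just above the drought limit, and Phvul.011G120500 stands alone at 0 in control and 11098 FPKM in drought.

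Values continued across both limits without a wide gap. Inside the control limit lay XTH7 (Phvul.003G231900) at 0.495 FPKM and Phvul.010G139900, with a vesicle transport term, at 0.494 FPKM. Just outside it were the pectinesterase-related gene Phvul.009G149400 (0.520 FPKM in control, 6.13 in drought) and Phvul.009G085200 (0.533 and 5.23 FPKM). At the drought limit, Phvul.011G091300 (5.004 FPKM) and Phvul.005G108000 (5.02 FPKM) were kept, while Phvul.002G011900 (4.99 FPKM) and Phvul.003G034800 (4.98 FPKM) were left out.

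The 6 genes listed at 0 in control are described apart, since an exact 0 in an FPKM table can be a failed estimate and no fold can be given against it. Phvul.011G120500 reached 11098 FPKM in drought, rank 15 among all genes, and its terms name only regulation of transcription. Its locus was placed on chromosome 11 from 21156313 to 21157326. It was the only gene of the table at 0 in one library and at 100 FPKM or more in the other. This gene alone held 0.903% of the summed drought FPKM of the table, and the other 76 members together held 0.0677%. The members summed to 11930 FPKM in drought with it and to 832 FPKM without it, against 20.7 FPKM in control. The nearest gene of the table, Phvul.011G120600, had 14.0 FPKM in control and 26.7 in drought. At a distance of 41610 bp, Phvul.011G120900 was among the most abundant transcripts of both libraries, with 40321 FPKM in control and 36471 in drought, and the next gene, Phvul.011G121000, had 29110 and 22160 FPKM. Whether reads of those transcripts entered the value of Phvul.011G120500 was not tested.

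Phvul.002G237700, which carries only a mitochondrion term, was at 0 in control and 40.5 FPKM in drought. It occupies the same locus as Phvul.002G237600 (29.0 FPKM in control and 74.97 in drought), and the library kit marks no strand, so the reads of this pair cannot be told apart. Phvul.008G177100, a copper-binding protein anchored to the membrane with xylan synthesis terms, was listed at 0 and 6.39 FPKM. Phvul.001G064000, annotated as an alcohol dehydrogenase, the enzyme that regenerates NAD in fermentation, was at 0 and 5.62 FPKM. The remaining ones, Phvul.011G150500 (0 and 6.18 FPKM) and Phvul.011G204500 (0 and 5.41 FPKM), have short loci of 183 and 487 bp and no Gene Ontology (GO) term.

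**Figure D2:**
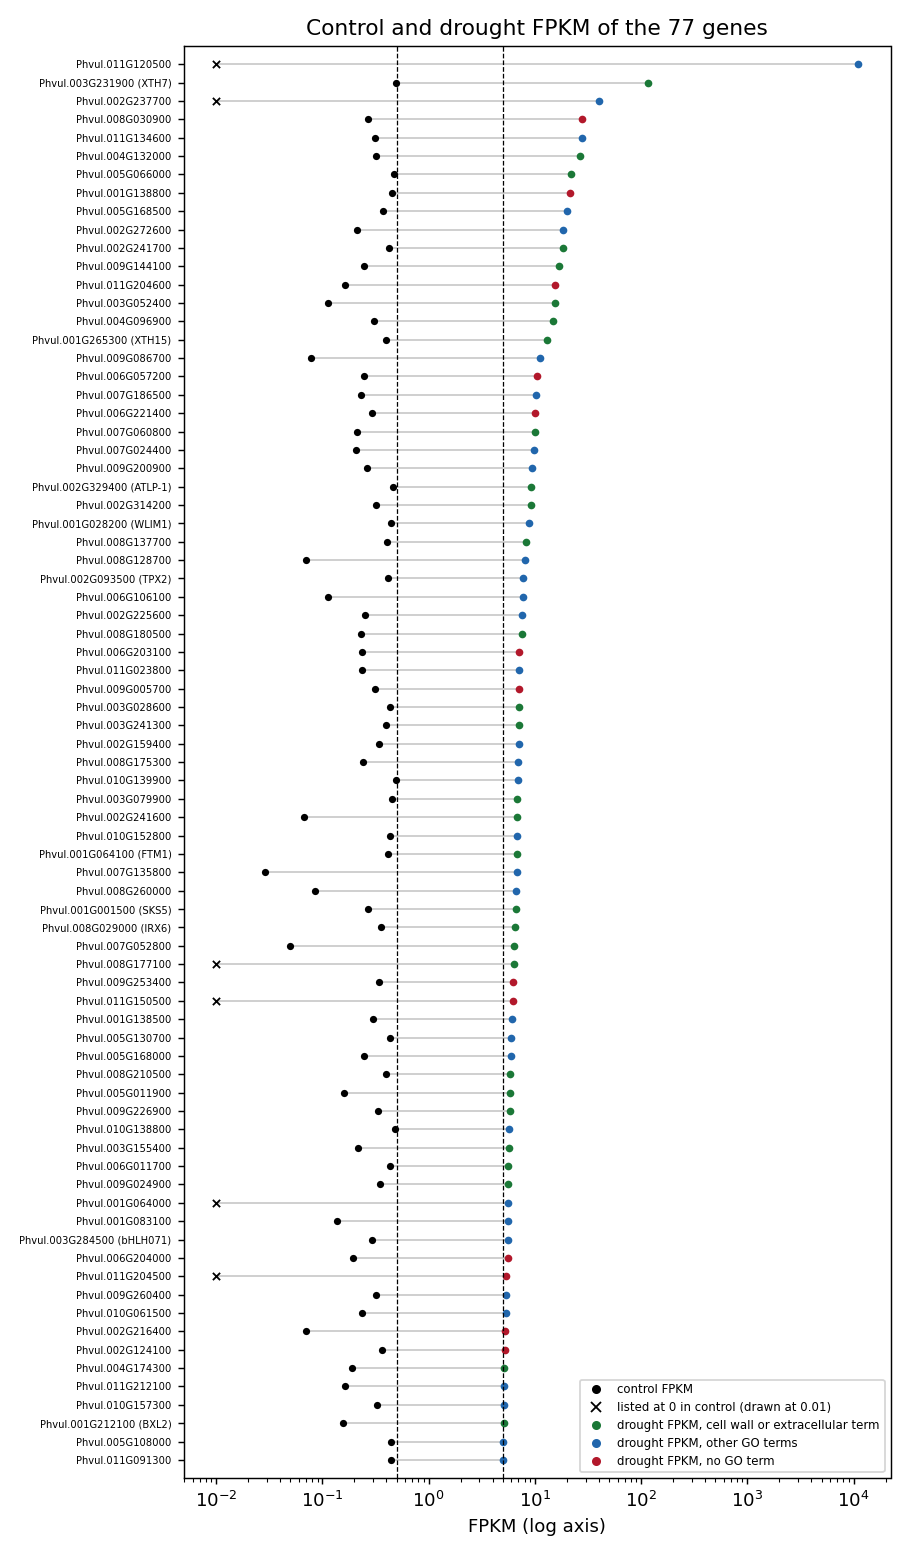
Control FPKM (black points, crosses for genes listed at 0 and drawn at 0.01) and drought FPKM (coloured points) of each of the 77 genes on a log axis, 1 library per condition, ordered by the drought value, with dashed lines at 0.5 and 5 FPKM. Colours show genes with a cell wall or extracellular term (30), with other GO terms (34) and with none (13), and the highest gene lies far from all others.

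GO terms were not used by the rule. Of the 77 genes, 64 had GO terms and 30 of these (46.9%) carried a cell wall or extracellular term. The share was 12.6% among genes on in both libraries (at least 5 FPKM in drought and at least 0.5 in control) and 15.5% among all genes with terms. Genes off in control carried such terms more often as a class, since the share was 21.7% among those below 0.5 FPKM in drought too and 26.5% among those between 0.5 and 5 FPKM in drought. Outside the set, 149 of the 2451 genes of this list with at least 1 FPKM in either library were 4-fold higher in drought. In the other direction, 40 were 4-fold lower, and the median log2 ratio was 0.23. Over all genes, 2.48% were 4-fold higher and 1.62% lower. The terms found most often were extracellular region (17 genes, 26.6% against 6.24% of genes on in both libraries), cell wall (12 genes, 18.8% against 2.45%) and anchored to membrane (8 genes, 12.5% against 0.728%). Among genes off in control with 0.5 to 5 FPKM in drought, these shares were 14.96%, 4.30% and 2.52%. A nucleus term was carried by 15.6% of the members with terms, against 34.5% of genes on in both libraries and 34.2% of genes off in control with 0.5 to 5 FPKM in drought. The chloroplast share of 9.38% was below the 19.6% of genes on in both libraries but near the 8.67% of that class off in control. These shares describe 2 pooled libraries, in which fewer cells of a type and less RNA per cell cannot be told apart.

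**Figure D3:**
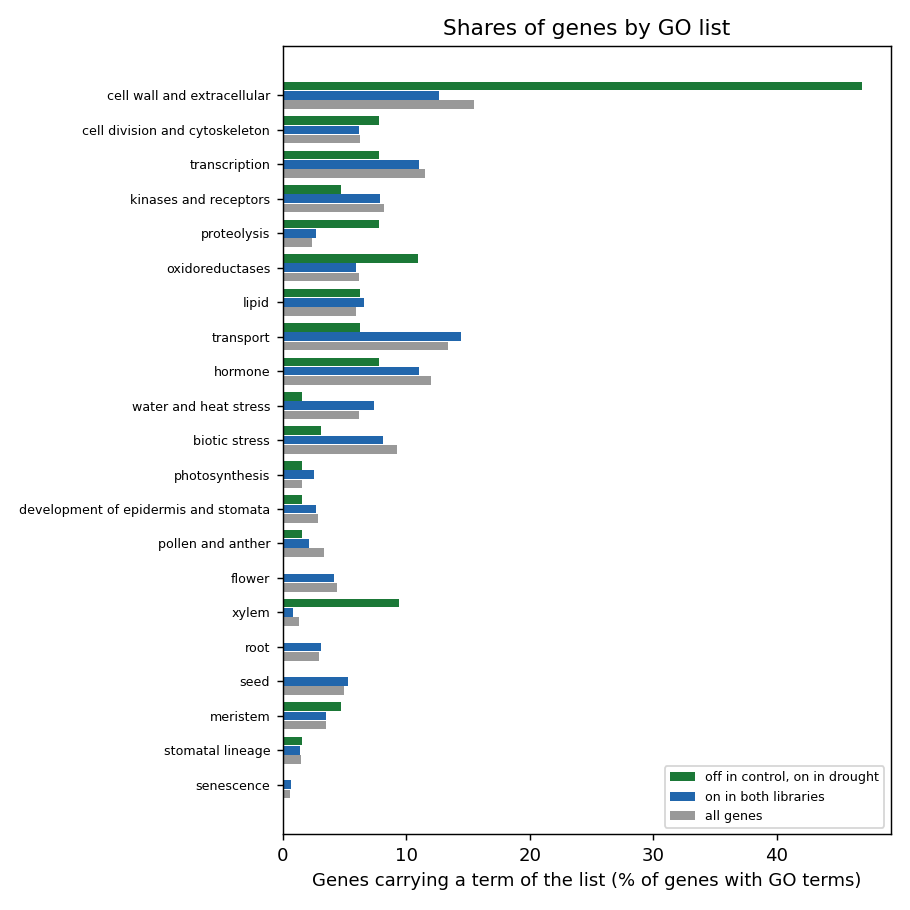
Share of genes carrying a term of each GO list, in % of genes with GO terms, for the genes off in control and on in drought (green), the genes on in both libraries (blue) and all genes (grey). The green bar for cell wall and extracellular terms reaches 46.9%, and the next highest green bars are oxidoreductases at 10.9% and xylem at 9.38%.

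The xyloglucan endotransglucosylase/hydrolases (XTHs) cut xyloglucan chains and join the ends to other chains. Of the 33 genes with xyloglucan:xyloglucosyl transferase activity, 4 (12.1%) were members. XTH7 was at 0.495 FPKM in control and 116 in drought, the second highest value of the set (chromosome 3, 45357671 to 45359236). Phvul.003G052400 followed with 0.114 and 15.4 FPKM, then XTH15 (Phvul.001G265300) with 0.397 and 13.1 FPKM and Phvul.007G052800 with 0.0493 and 6.41 FPKM. In the family as a whole, 26 genes had at least 1 FPKM in either library. Of the 22 outside the set, 8 were 4-fold higher in drought and none was 4-fold lower, beside 2.48% and 1.62% over all genes. The median log2 ratio of the 22 genes was 1.19. The members gave 13.0% of the family's summed drought FPKM of 1161, and the highest family value belonged to a gene expressed in both libraries, Phvul.009G233200 (142 FPKM in control and 354 in drought). Short single-end reads can be shared between such related genes, so the split of FPKM among them is uncertain.

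Pectin, the gel of the primary wall, is opened by pectate lyases and polygalacturonases and de-esterified by pectinesterases. One gene of each kind was a member, and none exceeded 10 FPKM. Pectate lyase Phvul.007G024400 had 0.208 FPKM in control and 9.71 in drought, and it lies outside the cell wall list because its terms do not contain the words of that list. Polygalacturonase Phvul.008G210500 had 0.396 and 5.87 FPKM, and the gene named Pectinesterase 25 (Phvul.005G011900) had 0.159 and 5.82 FPKM. Outside the set, 4 of 20 polygalacturonase genes and 1 of 9 pectate lyase genes were 4-fold higher in drought and none 4-fold lower. Among the other 45 pectinesterase genes, 3 were higher and 4 lower, beside 2.48% and 1.62% over all genes.

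Genes with the term secondary cell wall biogenesis made up 5 of the members (7.81% of those with terms, against 0.173% of genes on in both libraries). Of the 78 genes of this term in the table, 48 were below 0.5 FPKM in control, and 28 of these had 0.5 to 5 FPKM in drought. Phvul.002G241700 (0.426 and 18.4 FPKM in control and drought), Phvul.004G096900 (0.303 and 14.7 FPKM) and Phvul.002G241600 (0.0672 and 6.83 FPKM) share the terms plasma membrane, anchored to membrane and secondary cell wall biogenesis. Phvul.003G241300, a Golgi protein with xylan terms, had 0.397 and 7.03 FPKM. IRX6 (Phvul.008G029000), a COBRA-like extracellular protein required in Arabidopsis for cellulose deposition in xylem walls, had 0.356 and 6.49 FPKM. Of the 50 genes of this term outside the set with at least 1 FPKM, 8 were 4-fold higher in drought and none lower, with a median log2 ratio of 1.28. These 5 genes and FTM1 formed the 6 members of the xylem list, 9.38% of the members with terms. The share was 0.811% among genes on in both libraries, 1.32% among all genes, and 5.78% among genes off in control with 0.5 to 5 FPKM in drought. The list as a whole summed to 4021 FPKM in control and 4396 in drought. Over its genes with at least 1 FPKM in either library, members included, the median was 1.91 FPKM in control and 4.93 in drought. Of its 224 genes outside the set, 15 were 4-fold higher and 1 was 4-fold lower, beside 2.48% and 1.62% over all genes. The median log2 ratio of the 224 genes was 0.76. The part of xylem in the values of the members was not tested.

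**Figure D4:**
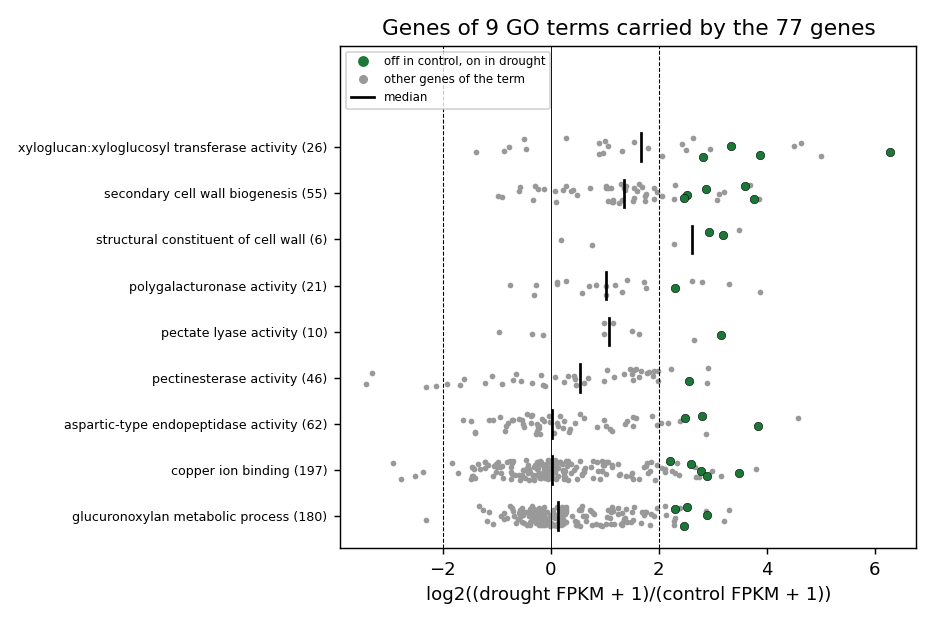
Log2 ratio of drought over control (1 FPKM added to both) for every gene of 9 GO terms with at least 1 FPKM in either library, 1 point per gene, with the number of genes in brackets, the median as a black bar and dashed lines at 4-fold. Green points are the selected genes, which lie beyond 2 by construction and are counted in the medians drawn. The median is 1.67 for xyloglucan:xyloglucosyl transferases and 0.02 for aspartic-type endopeptidases. Without the selected genes these medians are 1.19 and -0.03.

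Further members had terms for the cell wall, the extracellular region or the extracellular matrix. Phvul.007G060800 (0.211 and 10.02 FPKM) and the leucine-rich repeat gene Phvul.002G314200 (0.319 and 9.10 FPKM) were 2 of the 9 genes of the table with the term structural constituent of cell wall. A mannose-binding lectin gene, Phvul.005G066000, had 0.475 FPKM in control and 21.8 in drought. BXL2 (Phvul.001G212100), named a beta-glucosidase in the annotation of the study and known in Arabidopsis as a relative of wall beta-xylosidases, had 0.157 and 5.07 FPKM. The glycosyl hydrolase family gene Phvul.003G079900 had 0.456 and 6.85 FPKM. ATLP-1 (Phvul.002G329400), of the thaumatin-like proteins, had 0.466 and 9.23 FPKM, and Phvul.008G137700, with stomatal patterning terms, had 0.405 and 8.21 FPKM. Phvul.002G272600 (0.214 and 18.5 FPKM) carries the terms extracellular matrix and chorion, the latter an insect eggshell structure that plants lack.

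Proteases were represented by 5 genes (7.81% of members with terms, against 2.66% of genes on in both libraries and 2.0% of genes off in control with 0.5 to 5 FPKM in drought), all of which also carry an extracellular term. Among the aspartic proteases, Phvul.009G144100 had 0.246 FPKM in control and 16.7 in drought, Phvul.008G180500 had 0.229 and 7.51 FPKM, and Phvul.003G028600 had 0.430 and 7.03 FPKM. The subtilase Phvul.009G226900, a serine protease, had 0.332 and 5.78 FPKM, and the serine carboxypeptidase Phvul.003G155400 had 0.218 and 5.65 FPKM. Outside the set, 12 of 435 proteolysis genes were 4-fold higher in drought and 5 lower, beside 2.48% and 1.62% over all genes. The median log2 ratio of the 435 genes was -0.07.

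Oxidoreductases numbered 7 (10.9% against 5.91%, and 6.89% in the same class off in control). The peroxidase Phvul.004G132000, of the class that oxidises phenolic wall components, was the highest with 0.317 FPKM in control and 26.7 in drought. Phvul.008G128700, a heme protein with monooxygenase terms, had 0.0704 and 8.12 FPKM. SKS5 (Phvul.001G001500), of the SKU5 family of multicopper oxidase-like proteins, had 0.269 and 6.67 FPKM, and L-ascorbate oxidase Phvul.006G011700, an enzyme of the apoplast, had 0.433 and 5.63 FPKM. FTM1 (Phvul.001G064100), an acyl carrier protein desaturase that introduces a double bond into fatty acids, had 0.410 and 6.80 FPKM. Copper ion binding was a term of 5 members (7.81% of those with terms, against 1.12% of genes on in both libraries). Among them were Phvul.009G086700 (0.0773 and 11.1 FPKM) and Phvul.002G225600 (0.2501 and 7.54 FPKM), the latter annotated with aureusidin synthase activity of pigment synthesis. Of the 192 genes of this term outside the set with at least 1 FPKM, 14 were 4-fold higher in drought and 4 lower. Of the 1062 oxidoreductase genes outside the set, 23 were 4-fold higher in drought and 46 lower, beside 2.48% and 1.62% over all genes.

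The cell division and cytoskeleton list held 5 members, 7.81% against 6.17% of genes on in both libraries and 9.70% of genes off in control with 0.5 to 5 FPKM in drought. Phvul.005G168500, named a dynein light chain type 1 family protein by the study, carries a microtubule motor term. It had 0.368 FPKM in control and 20.0 in drought. Its locus overlaps Phvul.005G168400, which was at 0 in both libraries. Phvul.009G086700 and ATLP-1, given above, entered the list through terms for cytokinesis, and Phvul.011G023800, a ubiquitin ligase gene, had 0.238 and 7.10 FPKM. The fifth, the glycosyl hydrolase gene Phvul.003G079900 (0.456 and 6.85 FPKM), matched through a histone methylation term. Outside the set, 18 of the 1244 genes of the list were 4-fold higher and 3 lower, beside 2.48% and 1.62% over all genes. Outside the list by its terms was Phvul.002G093500, named TPX2 by the study, at 0.416 and 7.78 FPKM. The study describes it as a microtubule-associated protein that orients cortical microtubules in interphase. WLIM1 (Phvul.001G028200), a LIM protein that bundles actin in plants, had 0.439 and 8.79 FPKM.

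The transcription list held 5 members, 7.81% of those with terms, against 10.99% of genes on in both libraries and 11.5% of all genes. Apart from Phvul.011G120500 and WLIM1, these were Phvul.009G200900 (0.264 and 9.31 FPKM), which also carries plastid and photosystem II assembly terms, Phvul.006G106100 (0.113 and 7.77 FPKM), with ethylene and jasmonate signalling terms, and bHLH071 (Phvul.003G284500), a basic helix-loop-helix factor, at 0.292 and 5.61 FPKM. Protein kinases were Phvul.001G138500 (0.298 and 6.15 FPKM), with leucine-rich repeats, and Phvul.001G083100 (0.136 and 5.62 FPKM). The kinases and receptors list also held Phvul.009G200900, which matched only through a protein dephosphorylation term. The auxin transport gene Phvul.007G186500 had 0.232 and 10.3 FPKM. Phvul.008G260000, with a response to fungus term, had 0.0843 and 6.68 FPKM, and Phvul.007G135800, a glycosyltransferase, had the lowest control value above 0 in the set, 0.0291 FPKM, with 6.77 in drought. The other lists held 4 members each for lipid (6.25% of members with terms against 6.60% of genes on in both libraries) and transport (6.25% against 14.5%), 5 for hormones (7.81% against 11.1%), 3 for kinases and receptors (4.69% against 7.88%), 3 for meristem (4.69% against 3.48%) and 2 for biotic stress (3.12% against 8.15%). Photosynthesis and the epidermis and stomata list had 1 member each (1.56%), against 2.54% and 2.69% of genes on in both libraries. Outside the set, 31 of 2061 genes of the transcription list were 4-fold higher in drought and 38 lower. The same counts were 70 and 54 of 2095 for hormones, 47 and 24 of 1149 for lipid and 22 and 12 of 1548 for kinases and receptors, beside 2.48% and 1.62% over all genes.

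Of the water and heat stress list, 1 gene was a member, the alcohol dehydrogenase Phvul.001G064000, through osmotic and salt stress terms. This is 1.56% of the members with terms, against 7.41% of genes on in both libraries, 4.52% of genes off in control with 0.5 to 5 FPKM in drought and 4.47% of genes below 0.5 FPKM in both. Of the 1231 genes of that list outside the set, 24 were 4-fold higher in drought and 61 lower, beside 2.48% and 1.62% over all genes. The lists for flower, root, seed and senescence held no member, and the pollen and anther list held 1, the subtilase. Those lists are small, with 4.16% (flower), 3.08% (root), 5.27% (seed), 0.653% (senescence) and 2.15% (pollen and anther) of genes on in both libraries, so few members of 64 would fall in them. The summed FPKM of those lists was 17067 in control and 15614 in drought for flower, 15808 and 19258 for root, 29602 and 25050 for seed, 6456 and 6571 for senescence and 8681 and 8368 for pollen and anther. Photosynthesis genes, the check on green aerial tissue, had medians of 58.0 (control) and 60.6 FPKM (drought).

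The 13 genes without a GO term were 16.9% of the set, against 5.07% of genes on in both libraries, 10.1% of genes off in control with 0.5 to 5 FPKM in drought, and 20.1% of genes below 0.5 FPKM in both. Their drought values ran from 5.23 to 28.0 FPKM. The highest were Phvul.008G030900 (0.266 and 28.0 FPKM), Phvul.001G138800 (0.448 and 21.3 FPKM) and Phvul.011G204600 (0.162 and 15.6 FPKM). Their loci were short, with a median of 628 bp against 2063 bp in the members with terms. Another 17 members had terms but none of the functional lists, among them Phvul.011G134600 (0.313 and 27.9 FPKM), with vacuole and plasmodesma terms. Loci of all 77 genes had a median of 1751 bp, against 3638 bp in genes on in both libraries, and loci include introns.

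The members were found on all 11 chromosomes, with the lowest share of the genes of a chromosome on chromosome 4 (3 of 1789) and the highest on chromosome 11 (8 of 2168). In the gene order 3 pairs were next to each other, and 12 members lay within 100 kb of another member. The counts for genes placed at random were not worked out, so these counts cannot be called few or many. Phvul.002G241600 and Phvul.002G241700, both of secondary wall biogenesis, were 2511 bp apart, and their outer neighbours Phvul.002G241500 (21.9 and 6.54 FPKM) and Phvul.002G241800 (14.7 and 13.7 FPKM) were expressed in both libraries. The alcohol dehydrogenase Phvul.001G064000 and FTM1, which share the term response to hypoxia, were 7139 bp apart. Phvul.011G204500 and Phvul.011G204600, without GO terms, were 23413 bp apart in a run of short genes with low values. Others in the run were also higher in drought, among them Phvul.011G204100 (0.307 and 3.26 FPKM), Phvul.011G204400 (1.86 and 9.86 FPKM), Phvul.011G205100 (0.0967 and 1.95 FPKM) and Phvul.011G204000 (0 and 1.07 FPKM). Some were nearly level, such as Phvul.011G204300 (0.297 and 0.330 FPKM) and Phvul.011G204700 (0.425 and 0.455 FPKM). Of 102 directly flanking genes that were not members and had at least 1 FPKM, 3 (2.94%) were 4-fold higher in drought and 3 were lower, beside 2.48% and 1.62% over all genes, with a median log2 ratio of 0.04.

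**Figure D5:**
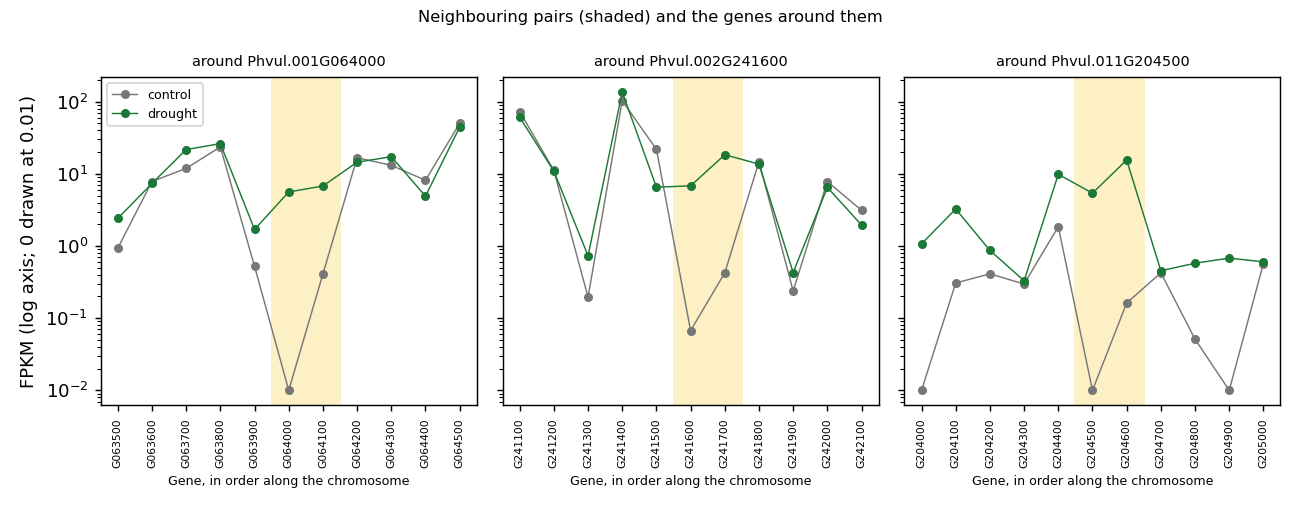
Control (grey) and drought (green) FPKM on a log axis, with 0 drawn at 0.01, for the genes around the 3 neighbouring pairs (shaded), in their order along the chromosome. In the first and second panels the genes outside the pair mostly have similar values in both libraries, and in the third several neighbours are also higher in drought.

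The rule turned round, with at least 5 FPKM in control and below 0.5 in drought, took 26 genes, or 0.190% of the 13667 genes with at least 5 FPKM in control. The 77 genes were 0.546% of the 14113 genes with at least 5 FPKM in drought. The highest control value among the 26 was 36.4 FPKM, of Phvul.010G019300 (0.452 FPKM in drought), and 1 of them was listed at 0 in drought. Of the 19 with GO terms, 2 (10.5%) carried a cell wall or extracellular term, 6 (31.6%) a hormone term and 5 (26.3%) a water or heat stress term, against 30, 5 and 1 of the 64 members with terms.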

How the data were processed

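RNA-Seq libraries were made from pooled PS plants, 1 per condition in the table. The authors used Trimmomatic for trimming, FastQC for quality and TopHat for alignment to the P. vulgaris G19833 genome, and they deposited FPKM per gene from Cuffdiff. The labels name CASAVA 1.8.2, and other versions are not given in the sources used here. The deposited fold change, p and q columns hold the authors' comparison and were not used. Starts in the table count from 0 and were moved by 1. Gene identifiers end in v1.0 while the methods name v2.1, so the release behind the coordinates is not settled. Gene names came from the annotation of the study, which gave a symbol for 10 members and an ortholog for 25.

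Members and gene lists were chosen with earlier results of these data known. Lists are word matches in GO term names. Log2 ratios used a pseudocount of 1 FPKM, and counts of 4-fold differences used genes with at least 1 FPKM in either library. Genes were named by rule: the 12 members highest in drought, those at 0 in control, the 3 highest per list, those with a symbol and those nearest the limits. The other genes named were chosen after their values were seen. The table holds no counts. The lowest value above 0 times locus length in kb, over loci under 1 kb, was 0.0187 in control and 0.0199 in drought, near the worth of 1 read. The same product in the control values above 0 of members had a median of 0.511. It used loci of any length with their introns, so it cannot be read as a number of reads. Alternatives changed the limits, scaling, pseudocount, filter and treatment of short, shared or zero loci. Promoter motifs were not analysed here. Python 3.11.15 with pandas 2.3.3, numpy 2.4.6, scipy 1.17.1 and matplotlib 3.10.9 was used. The selection was run on made values with planted genes, which checks the code and not the error of the selection.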

Additional observations from a re-analysis of the deposited data

How the results depend on the processing

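The number of genes followed the limits: 13 with a control limit of 0.1 FPKM, 172 with 1 FPKM, 343 with a drought limit of 2 FPKM and 21 with 10 FPKM. Those listed at 0 in control numbered 25 with the drought limit of 2 and 2 with 10. Scaling to the 75th percentile or to equal sums gave 87 and 88 genes, and leaving out shared loci, short loci or genes at 0 gave 75, 72 and 71, the last an alternative chosen after seeing the data. The cell wall share was 30.0% (3 of 10 genes) with the control limit of 0.1 and 37.0% to 56.2% otherwise, and it was 48.3% without genes at 0. The median log2 ratio was 4.45 and 4.89 with pseudocounts of 0.1 and 0.01, and 2.80 under both scalings, which moved the median of the 19661 genes from -0.03 to 0.06 and 0.07. With those pseudocounts 1798 and 1932 genes differed 4-fold in place of 805, and 72.5% and 73.1% of them were higher in drought in place of 60.5%. The reversed rule took 23 and 22 genes under the scalings. The share with a cell division term ran from 5.30% (control limit of 1 FPKM) to 12.5% (drought limit of 10 FPKM). The share with no GO term ran from 11.1% without short loci to 23.8% with the drought limit of 10 FPKM. No paired analysis was possible because each condition had 1 library. Without counts or replicates, a value near a limit cannot be placed on either side with a known error.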

Other observations

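Below the drought limit, 40 genes were listed at 0 in control and had 1 to under 5 FPKM in drought, and 10 genes were listed at 0 in drought and had 1 to under 5 FPKM in control. Loci under 500 bp made up 19 of the 40 and 4 of the 10, against 4.29% of all genes. Over the table, 3313 genes were at 0 in control, 2916 in drought and 2506 in both.

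Near the member Phvul.006G203100 (0.234 FPKM in control and 7.10 in drought, no GO term) lies Phvul.006G202700, which had 46.8 FPKM in control and 1534 in drought at a distance of 19053 bp. The genes between them were lower in drought: Phvul.006G202800 (17.4 and 11.4 FPKM), Phvul.006G202900 (28.1 and 14.5 FPKM) and Phvul.006G203000 (95.5 and 37.7 FPKM). On the other side, at 515 bp, Phvul.006G203200 had 944 FPKM in control and 907 in drought.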
